A study of Danio rerio with 14 samples.

Results

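Chromatin regulators are the proteins that write, read, erase and rearrange the marks on DNA and histones. They were chosen here by gene symbol alone, as the genes measured by a probe set of a single symbol beginning with smarc, hdac, kdm, kmt, setd, chd, brd, brpf, dnmt, tet, ezh, suz12, cbx, mbd, arid, prmt or crebbp, together with eed and uhrf1. The rule found 89 genes on 125 probe sets, of 8793 genes with such a probe set on the Affymetrix Zebrafish Genome Array. No tet gene had a probe set of this kind. Each gene was represented by its probe set with the highest mean signal.

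RNA came from whole zebrafish embryos of the TL strain at 8 hours post fertilization (hpf), which is mid-gastrulation, in pools of about 20. The 7 ethanol pools had been kept in embryo medium with 100 mM (0.6% by volume) ethanol for 6 hours, starting at 2 hpf. The 7 control pools were in medium without ethanol. An ethanol pool and a control pool with the same number, 1 to 6 or 8, came from the same experiment, called an embryo batch here, and formed a pair. The study asked which transcripts ethanol changed while gastrulation was disturbed. Fewer cells of a type and less RNA per cell cannot be told apart in such pools. The paper reports slowed epiboly in ethanol embryos, so pools of the same age were not necessarily at the same stage. A difference in stage cannot be told apart from other effects of ethanol here.

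DNA methylation is copied at replication by Dnmt1, which Uhrf1 brings to hemimethylated DNA, and is set anew by the Dnmt3 enzymes. Polycomb, HP1 and deacetylase proteins are associated with silenced chromatin, and SWI/SNF and CHD proteins move nucleosomes with the energy of ATP. The roles given here are those known for these families in mammals. Zebrafish embryos receive many of these transcripts from the mother and switch on their own genome shortly after the exposure began.

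The array median signal was 219 to 296 in ethanol pools and 214 to 282 in control pools, and 8000 to 9262 probe sets reached a signal of 200 in an ethanol pool, against 7943 to 9156 in a control pool. A probe set was tested when at least 3 arrays of a treatment reached that signal, which kept 9240. The log2 change, ethanol minus control, came from limma with the embryo batch as a block, and p-values were adjusted over all probe sets tested by Benjamini-Hochberg. A change was called where the adjusted p did not exceed 0.10. Of the 89 regulators, 75 were tested. The other 14 (smarca1, smarca2, hdac4, hdac9b, hdac11, cbx6b, cbx8a, setd9, kdm4ab, kdm4c, kmt2a, brd8a, prmt8b and mbd2) reached 200 in no more than 2 arrays, and 8 of them in none.

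Of the 75 regulators, 2 were called lower with ethanol, the histone demethylase genes kdm5bb and kdm5c, and none was called higher. Both calls depended on the analysis, as given below. The 2 genes are 2.67% of the regulators. Of all probe sets tested, 4.36% were called in either direction, 2.00% lower and 2.36% higher. At an unadjusted p under 0.05 there were 8 regulators, 7 lower and 1 higher, or 10.7%, against 15.0% of all probe sets. In either direction, the regulators were thus called no more often than the array as a whole, while for lower calls alone the shares were 2.67% and 2.00%. None of the 75 had ethanol and control signals that did not overlap, against 0.357% of all probe sets. In 4 of them, or 5.33%, all 7 pairs moved the same way, against 6.11% of all probe sets.

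Most estimates were small and tightly bounded. The 95% interval lay within a 1.5-fold change either way for 59 regulators, or 78.7%, against 63.0% of all probe sets. This is not a like comparison, since each regulator was represented by its brightest probe set. All probe sets include the dimmer ones of a gene, and intervals were wider at low signal. The shares thus do not show that the regulators were steadier than other genes. Of the 62 that reached a signal of 200 on all 14 arrays, 58 had such an interval, and the largest change among the 62 was 0.52 in size on the log2 scale. The other 13 were dimmer and less certain, with a median standard error (SE) of 0.40 against 0.097 for the 62. Estimates were below 0 for 51 of the 75, or 68.0%, against 50.2% of all probe sets, and the median was -0.05 against -0.0014. Below 0 were 49 with quantile normalization and 50 with median centring. Genes are not independent replicates, so these shares are a description.

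**Figure D1:**
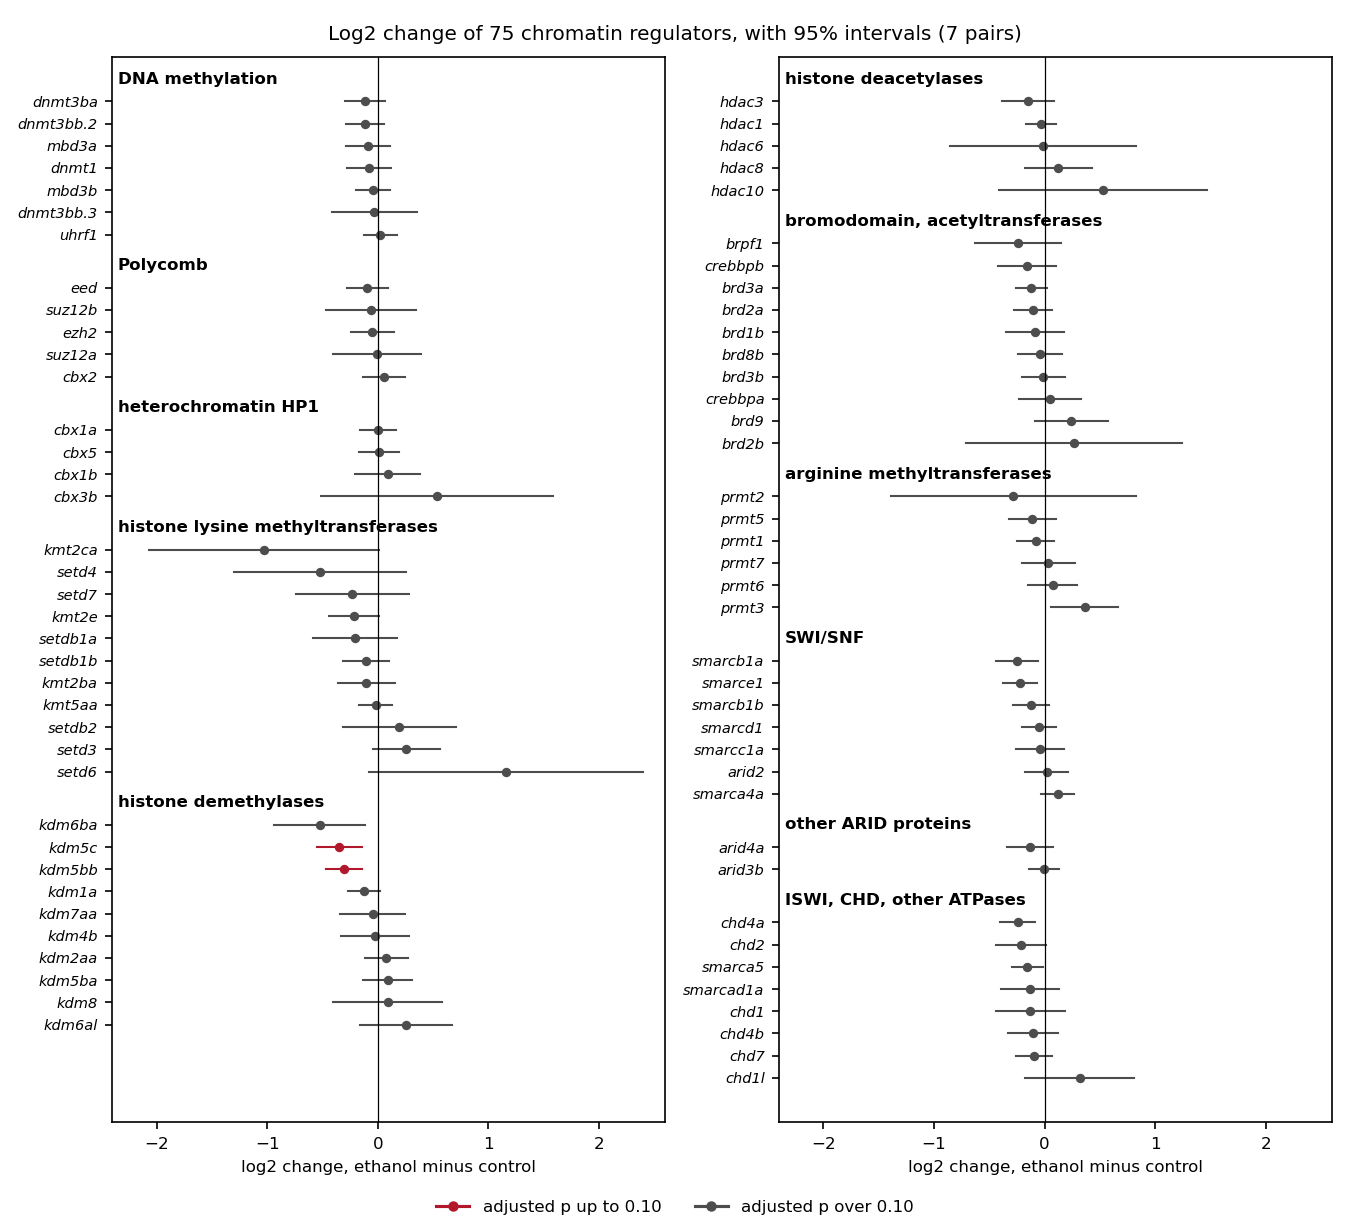
Log2 change (ethanol minus control, x axis) of the 75 tested regulators by role, with 95% intervals from limma over 7 pairs. The 2 red genes, kdm5c and kdm5bb, passed an adjusted p of 0.10, and the widest intervals belong to dim genes such as setd6, prmt2 and kmt2ca.

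Kdm5 proteins are demethylases that remove methyl groups from lysine 4 of histone H3, a mark of active promoters. The signal of kdm5bb was 4031 at the lowest, 4980 at the median and 5493 at the highest in ethanol pools, against 4717, 5799 and 6880 in control pools. The ethanol pool was the lower one in all 7 pairs, and 3 ethanol pools lay below every control pool, although the ranges overlapped. The log2 change of kdm5bb was -0.30 (SE 0.08, 95% interval -0.47 to -0.14, adjusted p = 0.0433, limma), a signal ratio of 0.81. The fall was smallest in batch 1 (-0.03) and largest in batch 4 (-0.50).

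The signal of kdm5c was 2315, 2495 and 3306 (lowest, median, highest) in ethanol pools, against 2874, 3421 and 4209 in control pools. Ethanol pools were lower in 6 of 7 pairs, with batch 1 the exception at 0.16, and 4 ethanol pools lay below every control pool. The log2 change was -0.35 (SE 0.10, 95% interval -0.55 to -0.14, adjusted p = 0.0717, limma), a ratio of 0.79.

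Both genes had a single probe set each, and both calls depended on the analysis. Neither passed without moderation of the variances, which is a plain 2-way analysis of variance (adjusted p = 0.136 for kdm5bb and 0.274 for kdm5c), without the trend of variance with signal (0.186 and 0.247) or without the block (0.420 and 0.459), and with a random block kdm5c was lost (0.117). In turn, kdm5bb missed the threshold without batch 2, 4, 6 or 8 (limma, adjusted p from 0.1004 to 0.131), as did kdm5c without batch 2, 3, 5, 6 or 8 (0.121 to 0.235).

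Another Kdm5 gene, kdm5ba, a duplicate of kdm5bb, had signals of 2522, 2796 and 3058 in ethanol pools, against 1827, 2897 and 3062 in control pools. Its ethanol pool was higher in 3 pairs and lower in 4, and its log2 change was 0.09 (SE 0.11, 95% interval -0.13 to 0.31, adjusted p = 0.754, limma). The change of kdm5ba was above that of kdm5bb by 0.39 (SD 0.20, n = 7 pairs) in every pair, with p = 0.0156 by exact permutation of signs (two-sided), the smallest that 7 pairs allow. Over the 10 pairs of duplicate genes compared in this way the adjusted p was 0.156. Unless other gene pairs also had a small p, no gene pair could reach a lower adjusted p in this comparison. The smallest p of the other gene pairs was 0.219 (exact permutation of signs, brd3a with brd3b). Given these p-values, the adjusted value could not pass the threshold, and it does not decide whether kdm5ba and kdm5bb differ. The other 9 pairs, such as chd4a with chd4b, smarcb1a with smarcb1b and mbd3a with mbd3b, had adjusted p of 0.799 to 0.875.

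**Figure D2:**
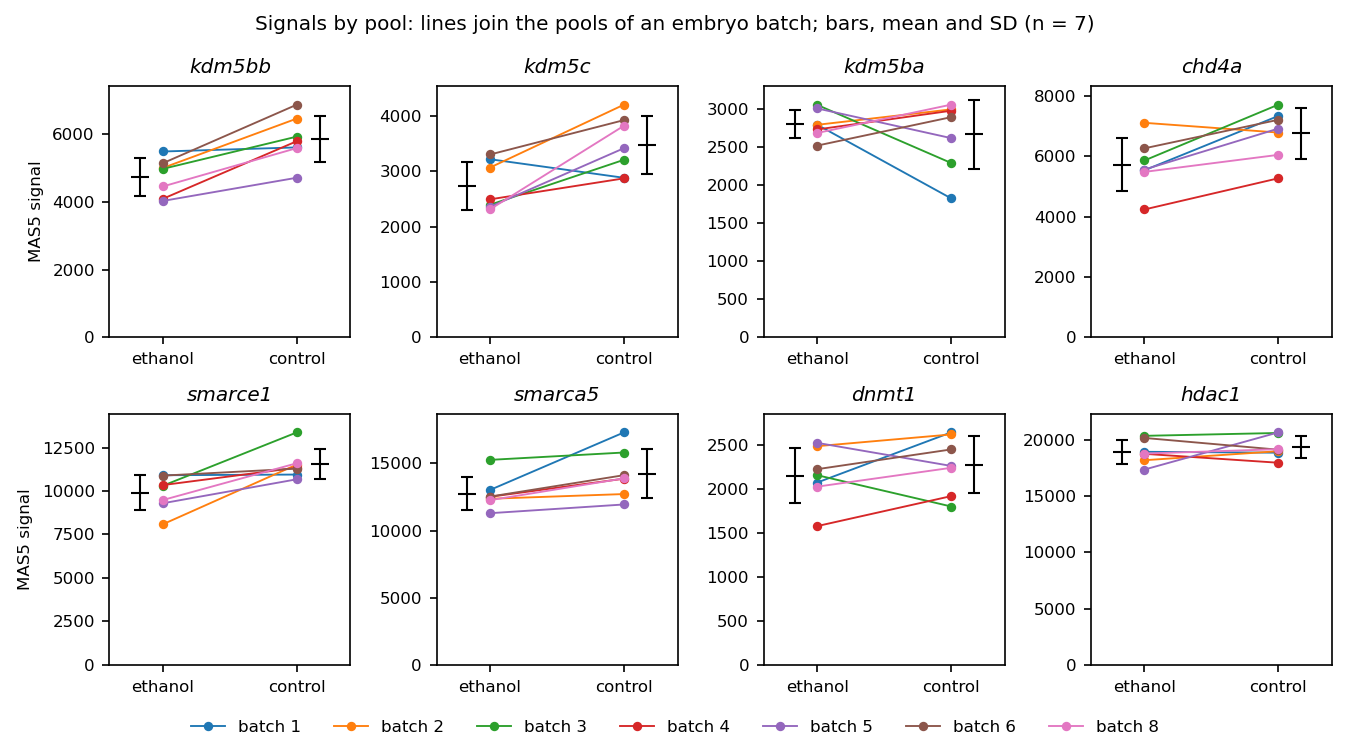
MAS5 signals (y axis, linear) of 8 regulators, with ethanol pools left of control pools and lines joining the 2 pools of an embryo batch; black marks give mean and SD, n = 7. The lines of kdm5bb, smarce1 and smarca5 all rise to the right, towards the control pools, whereas those of kdm5ba, dnmt1 and hdac1 cross.

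Among the other demethylases, kdm6ba, which acts on lysine 27 of histone H3, had 237, 399 and 663 in ethanol pools, against 403, 478 and 1100 in control pools. It was lower in 6 of 7 pairs, with a log2 change of -0.52 (SE 0.20, 95% interval -0.94 to -0.11) that did not pass after adjustment (adjusted p = 0.198, limma). The estimates of the 10 tested demethylases ran from -0.52 to 0.26, with 6 below 0.

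The chromatin remodellers held the next smallest p-values. The signal of chd4a, an ATPase of the NuRD complex, was 4235, 5560 and 7109 in ethanol pools, against 5270, 6919 and 7713 in control pools. It was lower in 6 of 7 pairs, all but batch 2 (0.07), and the ranges overlapped widely. Its log2 change of -0.24 (SE 0.08, 95% interval -0.41 to -0.08) missed the threshold (adjusted p = 0.110, limma).

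The SWI/SNF subunit gene smarce1 had 8090, 10310 and 10910 in ethanol pools, against 10680, 11340 and 13370 in control pools. All 7 pairs were lower, although batch 1 was nearly level (-0.0050), and 5 ethanol pools lay below every control pool. The log2 change of smarce1 was -0.22 (SE 0.07, 95% interval -0.38 to -0.07, adjusted p = 0.138, limma). The core subunit gene smarcb1a also had 5 ethanol pools below every control pool, but was lower in 5 of 7 pairs, with batches 6 (0.19) and 8 (0.06) the exceptions (-0.25, SE 0.09, adjusted p = 0.178, limma). Its duplicate smarcb1b was lower in 6 of 7 pairs (-0.12, SE 0.08, adjusted p = 0.486, limma). The ATPase gene smarca4a, also called brg1, gave 0.12 on its brighter probe set and -0.11 on the other. Of the 7 SWI/SNF genes tested, 5 were below 0 and none was called, with a median of -0.05. Besides smarca4a, arid2 was above 0, at 0.019 (SE 0.09). The dimmer probe set of arid2 was below 0, at -0.23 (SE 0.10, adjusted p = 0.304, limma).

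The ISWI ATPase gene smarca5 differed by probe set. On its brightest, the signal was 11290, 12510 and 15250 in ethanol pools, against 11940, 13880 and 17300 in control pools, lower in all 7 pairs (-0.15, SE 0.07, adjusted p = 0.283, limma). A dimmer probe set had 471, 727 and 952 in ethanol pools, against 880, 932 and 1369 in control pools, with 5 ethanol pools below every control pool. The dimmer probe set was called lower (-0.47, SE 0.12, adjusted p = 0.0422, limma), and the remaining one gave -0.28 (SE 0.15, adjusted p = 0.417). The call of the dimmer one was lost without batch 6 (adjusted p = 0.121, limma), without moderation (0.149), without the trend (0.127) and without the block (0.417). All of the 3 probe sets were thus below 0, but they differed in size. Another CHD remodeller gene, chd2, was at -0.21 (SE 0.11, adjusted p = 0.383, limma), lower in 6 of 7 pairs with batch 1 the exception (0.44), and its dimmer probe set was at -0.41 (SE 0.14, adjusted p = 0.174), lower in all 7. Of the 8 ISWI, CHD and other ATPase genes tested, 7 were below 0, with a median of -0.13, and chd1l was above it at 0.32 (SE 0.23).

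The maintenance methyltransferase gene dnmt1 had 1579, 2158 and 2525 in ethanol pools, against 1802, 2263 and 2645 in control pools. Ethanol pools were lower in 5 of 7 pairs, and the ranges overlapped nearly throughout. Its log2 change was -0.08 (SE 0.10, 95% interval -0.28 to 0.12, adjusted p = 0.748, limma).

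The uhrf1 signal was 4236, 6124 and 7267 in ethanol pools, against 4691, 6038 and 7223 in control pools, a log2 change of 0.02 (95% interval -0.13 to 0.18). Its dimmer probe set gave 0.29 (SE 0.13, adjusted p = 0.274, limma). The de novo methyltransferase genes gave -0.12 for dnmt3ba, -0.12 for dnmt3bb.2 and -0.03 for dnmt3bb.3, and the methyl-CpG-binding family genes of the NuRD complex gave -0.09 for mbd3a and -0.04 for mbd3b, all with intervals that include 0. The interval of dnmt3bb.3 reached from -0.41 to 0.35, so a change of that size was not detectable.

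The histone methyltransferase of Polycomb, ezh2, had 4456, 5502 and 6731 in ethanol pools, against 4420, 5896 and 6900 in control pools. The ranges nearly coincided, and the log2 change was -0.05 (SE 0.09, 95% interval -0.24 to 0.15, limma). Its 2 dimmer probe sets gave -0.29 (SE 0.12, adjusted p = 0.241, limma) and -0.78 (SE 0.54). Its partner genes were at -0.10 for eed, -0.0068 for suz12a and -0.06 for suz12b, and the chromodomain reader cbx2 was at 0.05. The HP1 genes, which bind methylated lysine 9 of histone H3, were 4 of 4 above 0, with cbx1a at 0.0032, cbx5 at 0.013, cbx1b at 0.09 and the dim cbx3b at 0.53 (SE 0.50). The dimmer probe set of cbx5 was below 0, at -0.11 (SE 0.15).

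The deacetylase gene hdac1 had the smallest SE of the 75 regulators, with signals of 17380, 18800 and 20380 in ethanol pools, against 17980, 19140 and 20690 in control pools. The log2 change was -0.03 (SE 0.06, 95% interval -0.17 to 0.10), and the ranges were nearly the same. Its sign turned with quantile normalization (0.0041). Its relatives hdac3 (-0.15, SE 0.11), hdac8 (0.13, SE 0.14) and the dim hdac10 (0.53, SE 0.45) also missed the threshold.

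The arginine methyltransferase gene prmt3 was the single regulator higher in all 7 pairs. Its signal was 525, 619 and 779 in ethanol pools, against 377, 517 and 564 in control pools. In all, 6 ethanol pools lay above every control pool, although the ranges overlapped. The log2 change was 0.36 (SE 0.14, 95% interval 0.06 to 0.67, adjusted p = 0.228, limma). The main arginine methyltransferase gene, prmt1, was at -0.08 (SE 0.08) and prmt5 at -0.11 (SE 0.10).

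The lysine methyltransferase genes had the widest spread, from -1.03 (kmt2ca, SE 0.50) to 1.16 (setd6, SE 0.59), and both of these reached a signal of 200 in 5 of 14 arrays. The brighter kmt2e was at -0.21 (SE 0.11, adjusted p = 0.372, limma), with its dimmer probe set at 0.33. Of the 11 tested, 8 were below 0. Among the bromodomain proteins, which read acetylated histones, brd3a was at -0.12 (SE 0.07), brd2a at -0.11 (SE 0.08, with its 4 probe sets from -0.23 to 0.06) and brd9 at 0.24 (SE 0.16), and the acetyltransferase genes crebbpa and crebbpb were at 0.05 and -0.16. The ARID genes arid4a and arid3b were at -0.13 and -0.0021, with arid3b above 0 under quantile normalization (0.024) and median centring (0.0024).

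Of 21 regulators with several tested probe sets, 11 had all of them below 0, 2 had all above 0, and 8 had both signs. Counting every tested probe set, 3 of 103 were called, those of kdm5bb, kdm5c and smarca5, where 4.36% of all probe sets tested were called.

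By pair, the median log2 difference over the 75 regulators was below 0 in 6 of 7 pairs, from -0.13 in batch 6 to 0.01 in batch 1. Over all probe sets tested it was between -0.03 and 0.04. Between 37 and 50 of the 75 regulators were below 0 in a pair. In batch 1 the median was near 0, with 37 of the 75 below 0.

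**Figure D3:**
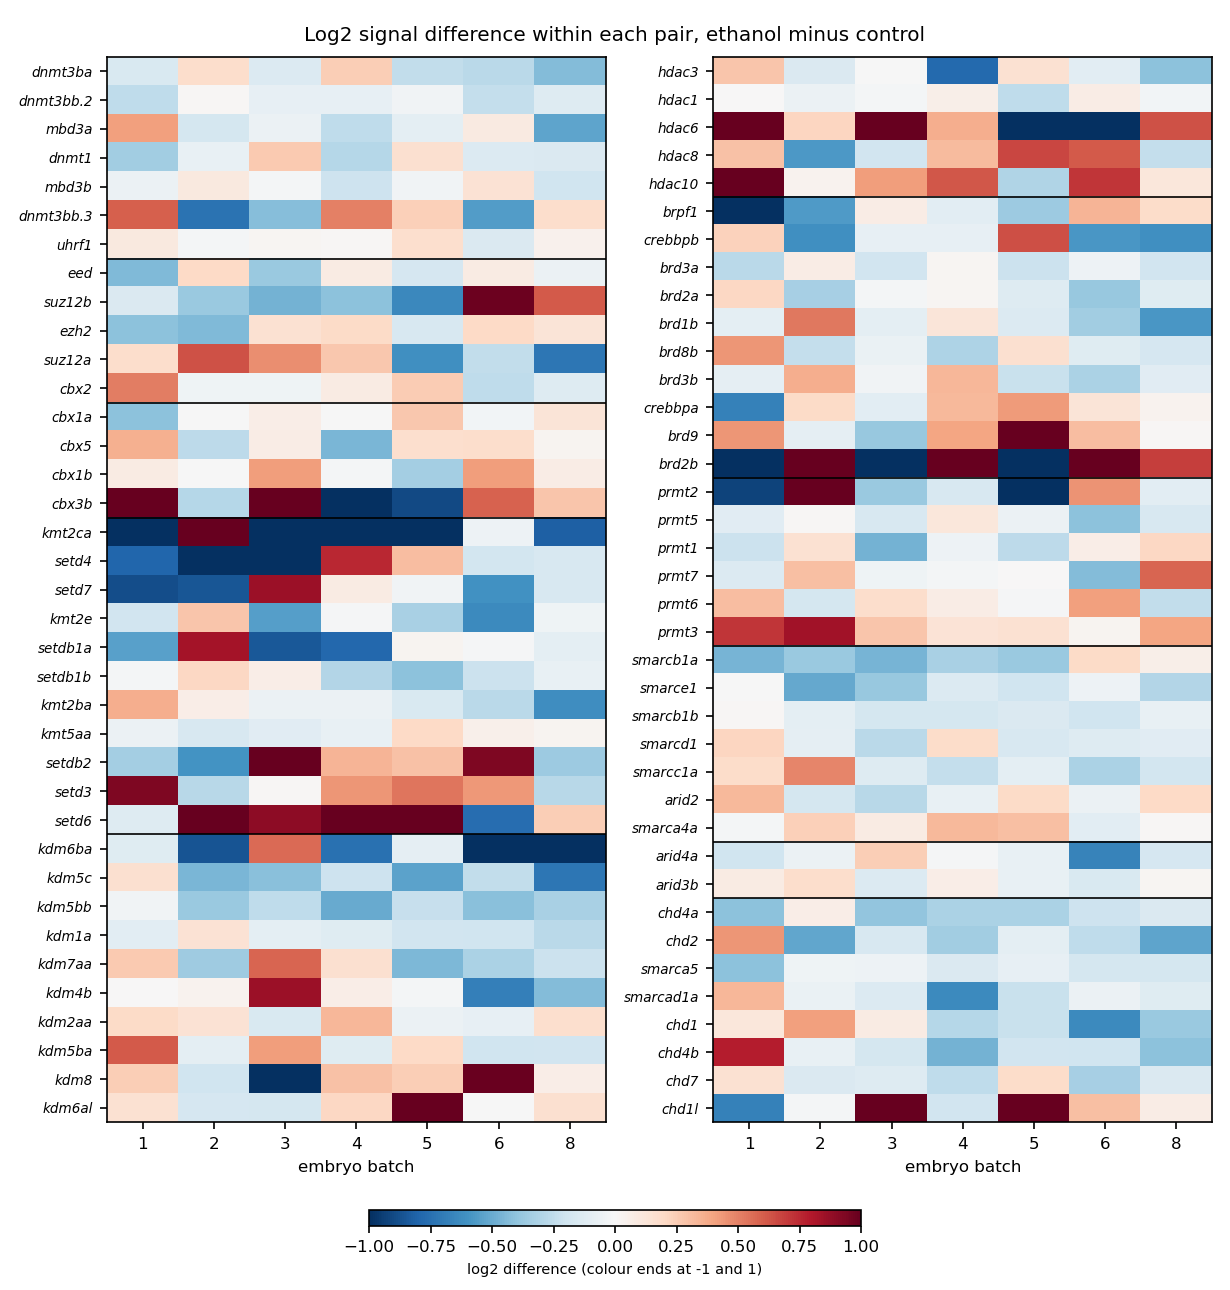
Log2 signal difference, ethanol minus control, of the 75 tested regulators (rows, grouped by role with black lines) in each embryo batch (columns); blue is lower and red higher in the ethanol pool. The rows of kdm5bb, smarce1 and smarca5 are blue or near white throughout, and that of prmt3 is red or near white throughout. Dim genes such as hdac6, brd2b and setd6 change colour between batches.

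Embryo batch was called for 13 regulators, or 17.3%, against 22.3% of all probe sets (limma F test, adjusted p up to 0.10), compared with 2 called for ethanol. The smallest batch p was that of uhrf1 (adjusted p = 0.00507), whose other probe set gave 0.00605. The geometric mean signal of its 2 pools was 4458 in batch 6 and 4659 in batch 2, and 7245 in batch 4. Batch values of the next genes are geometric means too. The next were setdb1b, which methylates lysine 9 of histone H3 (adjusted p = 0.00875, 1050 in batch 2 to 2142 in batch 3), and mbd3a (adjusted p = 0.0104, 3901 in batch 2 to 7283 in batch 4). Of the 13, batch 2 was lowest in 6 and batch 6 in 4, and batch 4 was highest in 5 and batch 3 in 4. Whether clutch, stage or handling differed between batches was not tested.

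**Figure D4:**
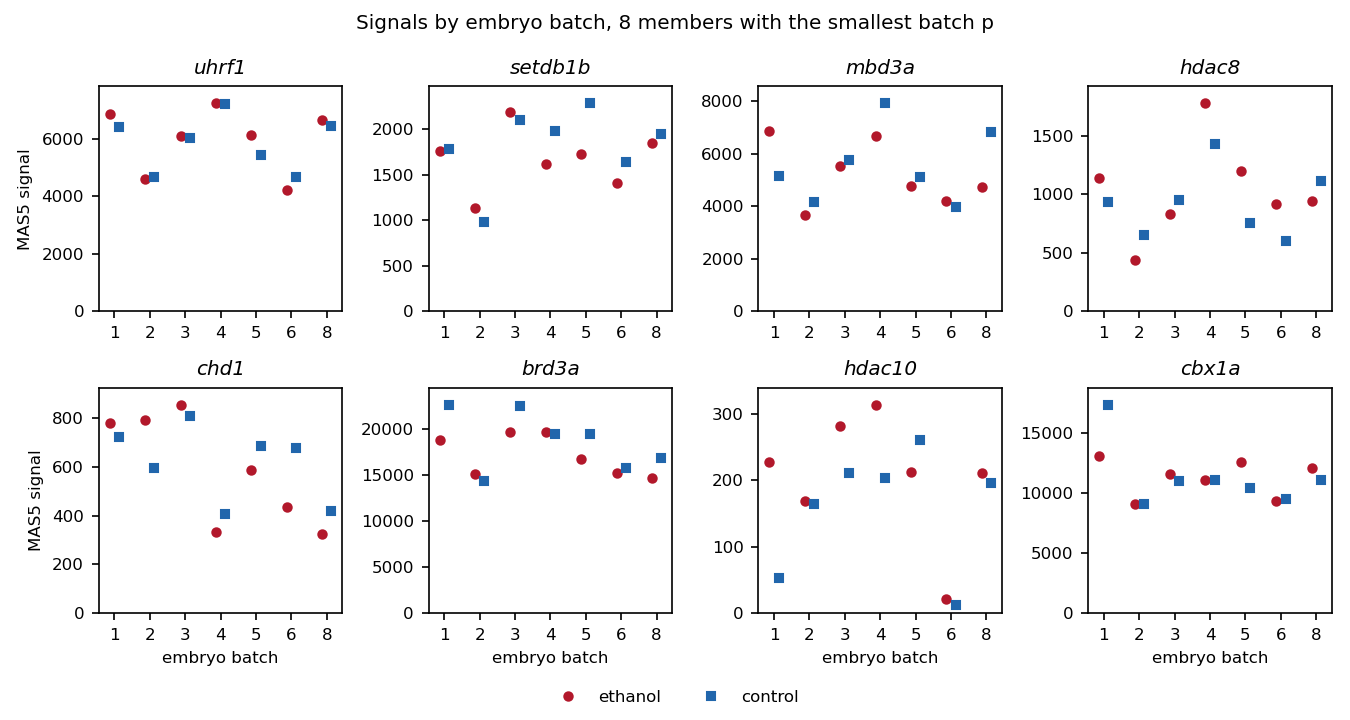
MAS5 signals (y axis, linear) of the 8 regulators with the smallest batch p by embryo batch (x axis), for ethanol pools (red circles) and control pools (blue squares). In uhrf1 the 2 pools of a batch lie close together, and batches 2 and 6 lie below the others.

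Other chromatin genes, which the symbol rule does not cover, were counted from separate lists. Of 163 listed, 87 were tested, 1 was called higher and none lower, where 4.36% of all probe sets were called, and 53 were below 0, where the share of all probe sets was 50.2%, with a median of -0.05. The one called was nsd1a, which methylates lysine 36 of histone H3, at 0.46 (SE 0.12, adjusted p = 0.0514, limma), higher in 6 of 7 pairs. It was no longer called without moderation (adjusted p = 0.237), without the trend (0.191), with a random block (0.243), without the block (0.666) or without batch 2, 3, 4 or 5 (limma, 0.101 to 0.160). Of 8 genes listed for Polycomb repressive complex 1 and its partners and 12 for NuRD and Sin3, none was called, nor were any of 20 INO80, SWR1 and other remodelling subunits or 20 histone chaperones and variants. The NuRD and Sin3 list was below 0 in 8 of 12, and its 4 genes with the smallest p were mta2 (-0.30), rbbp7 (-0.16), sirt2 (0.51) and mta3 (-0.46), with adjusted p of 0.306 to 0.372 (limma). The histone acetyltransferase list was below 0 in 5 of 12, with a median of 0.01, and the list of lysine 9 and other lysine methyltransferases in 2 of 4, with a median of 0.15.

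Some cell type markers moved with the treatment. Yolk syncytial layer genes, from the extraembryonic layer under the embryo, were all below 0 (6 of 6), with a median log2 change of -1.05. Called lower were apoa2, gamt, apobb.1 and apoa4b.1 (4 of 6), where 2.00% of all probe sets tested were called lower. Not called were slc26a1 (-0.29, adjusted p = 0.294, limma) and hnf4a (-0.05, adjusted p = 0.880, limma). The marker genes were listed with earlier results of these data known, so their shares are only a description. The signal of apoa4b.1 reached 200 in only 8 of 14 arrays. The summed signal of the 6 genes was 3891 to 12400 in ethanol pools, against 8755 to 21250 in control pools. No enveloping layer gene was called (0 of 6, median 0.12). Higher calls were made for 1 of 8 pluripotent cell genes (pou5f3, 0.35) and 1 of 4 germ cell genes (dnd1, 0.93). The pluripotent cell list had a median of 0.07 with 3 of 8 below 0. The germ cell list had a median of 0.17 with 1 of 4 below 0. Of all probe sets tested, 2.36% were called higher. The signal of dnd1 reached 200 in 12 of 14 arrays and was 76 in its lowest control pool. Of 12 cell cycle and replication genes, 11 were below 0 with a median of -0.12, and none was called. The log2 ratio between the 3′ and 5′ GAPDH controls of the array, which reflects how intact the RNA is, was higher in ethanol pools. The mean difference was 1.82, in 6 of 7 pairs, with 16 of 28 signals below 200. The ratio ran from 0.24 to 2.57 in ethanol pools and from -3.98 to 2.01 in control pools, so the ranges overlapped. For the acta1 controls the mean difference was 1.57, in 5 of 7 pairs, with 22 signals below 200. With so many dim signals, a difference in how intact the RNA was cannot be read from these ratios. By the paper's own quality check, all RNA samples had a high integrity number. The part of these differences in the values of the regulators was not tested.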

How the data were processed

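Total RNA of 14 pools was labelled and hybridised to 1 Affymetrix array each. The authors computed MAS5 signals, an intensity per probe set on a linear scale, and deposited them with each array scaled to a common target; the mean without the highest and lowest 2% was 1000.3 on every array. No detection calls were used here, so a minimum signal of 200 in at least 3 arrays of a treatment stood in for the authors' filter on presence. The table holds 15617 probe sets, 115 of them controls. Of the others, 10795 carry 1 symbol, 135 several and 4572 none in the array annotation. Scaling holds the average signal of an array fixed, so a change shared by most transcripts cannot be seen, and saturated or cross-hybridising probe sets understate changes.

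The model of log2 signals in limma 3.58.1 (R 4.3.3) held a treatment term and a fixed term for each embryo batch. Variances were moderated by eBayes along a trend with signal, with 12.7 prior and 6 residual degrees of freedom, and p-values were adjusted by Benjamini-Hochberg. Batch was tested over its 6 coefficients. The study's 2-way analysis of variance treated embryo batch as a random effect. Since every batch holds both treatments, its treatment test is the same with batch fixed or random, as in the fit without moderation. The random block differs, since it uses a correlation shared by all probe sets and keeps the moderation. Pairing comes from the numbers in the titles and from the 7 independent experiments in the methods, and deviations of same-numbered pools correlated at 0.112 to 0.378. The lowest was in batch 1, whose ethanol pool correlated better with a control pool of another batch (0.165). In every other batch the same-numbered control pool correlated best. Duplicate genes were compared over all 128 sign patterns. In the methods, embryos of an experiment probably shared 1 pair of parents, so the batches, not the embryos, are the replicates. Precision is limited by the number of arrays.

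Named were every called regulator, the 3 with the smallest p in each role group, a set of core genes, the 3 with the smallest batch p, and those whose probe sets differ in sign with a call; others are named for their values. The members and lists were chosen with earlier results of these data known. Alternatives were minimum signals of 100, 400 or none, quantile normalization, median centring, an offset of 100, no batch or a random batch block (statmod 1.5.0), no trend, no moderation, Storey's q-value (lambda 0.5), a threshold of 0.05, and each pair left out. Dixon's criterion (0.568 for 7 arrays) was applied to each named gene in each treatment. The fit was tested on 9240 simulated probe sets. It recovered 37% of 100 whose log2 change was 0.5 and 77% of 100 whose change was 1, and 15.6% of its 135 calls were false. Tables and figures were made with Python 3.11.15, pandas 2.3.3, scipy 1.17.1 and matplotlib 3.10.9.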

Additional observations from a re-analysis of the deposited data

Results flagged for a closer look

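In 9 of the 86 groups of 7 signals searched, 1 pool stood far from the other 6, where chance gives about 1 in 20. In ethanol pools the low ones were cbx3b in batch 4 (64.57, others from 202.9), dnmt3bb.2 in batch 6 (1954, others from 2316) and hdac10 in batch 6 (21.12, others from 168.3). In control pools the low ones were cbx3b in batch 3 (12.09, others from 101.7), crebbpb in batch 5 (3273, others from 4266), dnmt3bb.3 in batch 1 (294.1, others from 443.9), kmt2e in batch 2 (1845, others from 2306) and setdb1b in batch 2 (977.4, others from 1634). The 1 high value was that of smarce1 in the control pool of batch 3 (13370, others up to 11600). Without batch 3 the log2 change of smarce1 was -0.20, against -0.22 with it.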

How the results depend on the processing

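Regulators called higher numbered 0 under each alternative run. Those called lower numbered 0 with no replicate block, with no trend and with no moderation, 1 with a random replicate block, 1 at a threshold of 0.05, and 0 to 5 with 1 pair left out. With a minimum signal of 400 and with Storey's q-value, chd4a was called lower besides kdm5bb and kdm5c. With quantile normalization, smarce1 was called lower besides these genes. The genes changed with the pair: kdm5bb was called without batches 1, 3 and 5, kdm5c without 1 and 4, and neither without 2, 6 or 8. Also called lower were chd2, chd4b and smarce1 without batch 1, chd4a without 2, kdm6ba without 3 and smarcb1a without 6. The adjusted p of kdm5bb ran from 0.0221 to 0.420 over the alternatives and that of kdm5c from 0.0179 to 0.459. Over all probe sets, 28 were called with no replicate block, 177 with a random replicate block, 43 with no trend, 45 with no moderation, 215 at a threshold of 0.05, and 209 to 483 with 1 pair left out. Batch calls among the regulators fell to 4 with no trend, and were 10 to 17 with 1 pair left out. The cause of these differences was not tested.

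Of the estimates of named genes under all alternatives, 23 changed sign, 8 came past the threshold and 17 no longer passed, and 759 did neither. The changes of sign were in estimates near 0, except cbx3b. With quantile normalization arid3b was at 0.024 and hdac1 at 0.0041, and with median centring arid3b was at 0.0024. With 1 pair left out, arid3b ranged from -0.031 to 0.022, cbx2 from -0.022 to 0.10, cbx3b from -0.055 to 0.89 (lowest without batch 3), cbx5 from -0.044 to 0.091, crebbpa from -0.016 to 0.17, dnmt3bb.3 from -0.14 to 0.087, ezh2 from -0.090 to 0.016, hdac1 from -0.049 to 0.0058, suz12a from -0.11 to 0.11 and suz12b from -0.24 to 0.033. Dim genes limit what can be seen.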
